A study of Mus musculus with 4 samples.

Results

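Spry1, Spry2, Spry4, Spred1, Spred2, Rasl11a, Rasl11b and Rasd1 are genes of Sprouty, Spred and Ras-like proteins, measured here in cultured mouse mesangial cells. They were taken by symbol from the annotation of the probe sets: 23 probe sets of 45037 carried exactly 1 of these 8 symbols. For each gene the brightest probe set stands for the gene, and all 8 were among the 13565 genes tested, while 19 of the 23 probe sets passed the filter on dim ones. The 8 genes were chosen by their values in these same arrays, the difference between TGF-beta1 and low glucose. Their differences in that contrast are therefore a description, and no test is given for them.

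Total RNA was hybridised to 4 one-colour arrays. The first group was 2 arrays of cells treated with TGF-beta1 (transforming growth factor beta 1, a cytokine that drives scarring of the glomerulus), and the other was 2 arrays of cells in low glucose. The sources used here give no strain, dose, time or glucose level of the TGF-beta1 cultures, so a difference in glucose and an effect of TGF-beta1 cannot be told apart. Whether the arrays of each group represent separate cultures is not stated, so errors and p-values cover the spread among these 4 arrays alone and this may be technical.

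Sprouty proteins are intracellular brakes on receptor tyrosine kinase signalling. They are induced by the Ras-ERK cascade that they restrain, which makes a negative feedback loop. Spred proteins carry an EVH1 domain and bring neurofibromin, which switches Ras off, to the membrane. Rasl11a and Rasl11b are atypical Ras-like GTPases, and Rasd1 (Dexras1) is a Ras-like GTPase first described as induced by dexamethasone. No feedback role is assigned here to the last 3.

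The arrays fell into 2 pairs with 1 array of either group in each, found from 18 spike-in probe sets that hold no RNA of the cells. TGF-beta1 replicate 2 and low glucose replicate 1 (array pair 1) correlated across genes at r = 0.988, TGF-beta1 replicate 1 and low glucose replicate 2 (array pair 2) at 0.99, and arrays of 1 group at 0.955 in both groups. These correlations run across genes, which are not independent replicates. The sources used here do not say what the pairs stand for. Differences are given as TGF-beta1 minus low glucose on the scale of log2(intensity + 46.88) after quantile normalisation, which understates the change of dim genes. Errors after ± are standard errors from limma, fitted with a block for the array pair, unless called SD. That fit leaves 1 residual degree of freedom, and its errors follow the brightness of a gene and not the gene's own spread. The differences within each pair show how far the 2 pairs of a gene stand apart. Genes other than the 8 are said to have risen or fallen where that fit gave an adjusted p below 0.05. This held for 18.5% of all genes tested, 7.89% being higher and 10.6% lower in TGF-beta1.

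Most markers of mesangial cells had intensities near the filter. Of 9 mesangial and pericyte markers with a probe set 7 passed it, and Thy1 and Gata3 did not. Pdgfrb, the PDGF receptor of these cells, was at 87 and 118 in TGF-beta1 and 99 and 88 in low glucose. Vim, a filament protein of many cell types, was at 5298 and 6239 in TGF-beta1 and 5106 and 4346 in low glucose. Of 10 renal tubule markers 7 passed, among them Cdh16, a cadherin of tubules, at 1682 and 1495 in TGF-beta1 and 2014 and 1919 in low glucose. The summed intensity of the mesangial list was 6001 to 7068 in TGF-beta1 and 4970 to 5861 in low glucose, and 2 of its genes rose (Acta2 and Vim). Vim alone made up most of these sums, so they do not stand for the other markers of the list. That of the tubule list was 3219 to 3355 in TGF-beta1 and 3552 to 4077 in low glucose, and 2 of its genes fell (Lrp2 and Cdh16). Cdh16 was the largest part of the tubule sums. The sums of the podocyte list were 545 to 778 in TGF-beta1 and 580 to 738 in low glucose (1 rose, 1 fell, 3 of 4 passed the filter). Those of the endothelial list were 239 to 329 in TGF-beta1 and 262 to 322 in low glucose (0 called, 1 of 6 passed). Those of the macrophage and leukocyte list were 1311 to 1659 in TGF-beta1 and 1629 to 2000 in low glucose (1 fell, Csf1r, and 5 of 6 passed). Csf1r alone, at 952 and 1269 in TGF-beta1 and 1658 and 1274 in low glucose, made up most of these. No marker was at 0. The part of these shifts in the results was not tested. In a bulk sample, fewer cells of a type and less RNA per cell cannot be told apart.

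The 8 genes did not move together. Rasl11b was lower in TGF-beta1, by nearly 1 on the log2 scale, and Spry2 was higher by a little over 0.5. Spry4 and Spred1 were higher by 0.26 and 0.19, Rasl11a was lower by 0.16, and Spry1, Spred2 and Rasd1 differed by 0.06, 0.04 and -0.03. The median over the 8 genes was 0.05, against 0.00 over all genes tested. Of the 8, 5 were above 0 and 3 below, and 5 had the same sign in both array pairs. Only Rasl11b had both arrays of TGF-beta1 on 1 side of both arrays of low glucose. Over all genes tested, 20.9% had groups that did not overlap. A difference of at least 0.25 in either direction was seen in 3 of the 8, against 10.3% of all genes tested. The choice of the genes fixed these counts in part, so nothing is read from them.

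**Figure D1:**
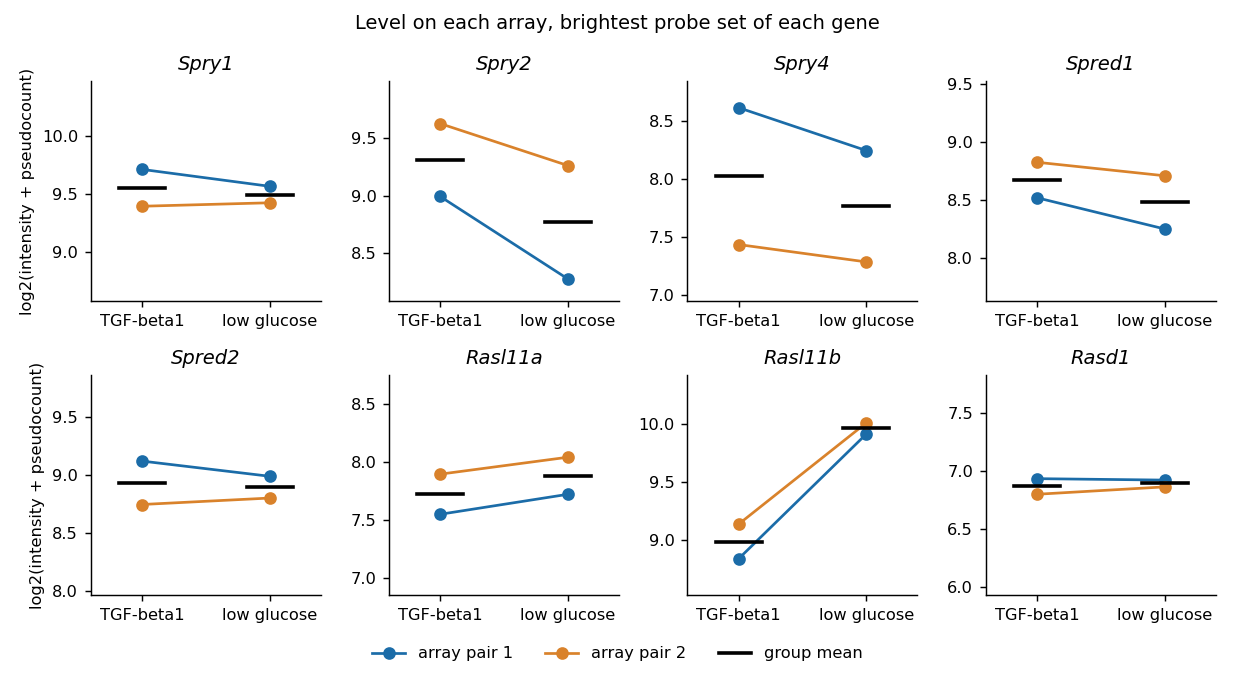
Level of each of the 8 genes on each array, as log2(intensity + pseudocount) of its brightest probe set, with TGF-beta1 left of low glucose. Lines join the arrays of a pair, black bars are group means (n = 2), and every panel spans the same range. Rasl11b is lower in TGF-beta1 in both pairs and Spry2 higher in both, while the lines of Spry4 lie far apart.

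Rasl11b showed the largest difference of the 8. Its deposited intensity was 512.3 and 415 on the TGF-beta1 arrays (replicates 1 and 2) and 934.8 and 967.7 on the low glucose arrays. Both TGF-beta1 arrays lay well below both low glucose arrays, and the 2 low glucose arrays lay close together. On the log2 scale it averaged 8.99 ± 0.21 in TGF-beta1 and 9.96 ± 0.07 in low glucose (SD, n = 2 each). The difference was -0.98 ± 0.08, a level 1.97-fold lower in TGF-beta1, with -1.08 within array pair 1 and -0.87 within array pair 2. It was the 10th lowest difference of the 13565 genes. With 1 array left out it lay between -1.13 and -0.83. Rasl11b has 1 probe set with a single symbol on this array, so no other probe set bears on it.

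Rasl11a, the paralogue of Rasl11b, showed a smaller difference of the same sign. Its intensity was 180.3 and 153.5 in TGF-beta1 and 176.2 and 205.3 in low glucose, so the groups overlapped. Its difference was -0.16 ± 0.06, with -0.17 and -0.15 within pairs 1 and 2. Each TGF-beta1 array was thus below the low glucose array of its own pair by a like amount. Leaving out TGF-beta1 replicate 1 or 2 gave -0.33 or 0.01, and leaving out low glucose replicate 1 or 2 gave -0.32 or 0.00. Leaving out 1 array unbalances the pairs, so part of the gap between them then enters the value.

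The 250 bases before the start sites of both paralogues are shown since their differences were -0.98 and -0.16. The sequences are those of RefSeq on build GRCm38.p6, 5′ to 3′ on the strand of the gene, with GGGCGG, the core of a site for the transcription factor Sp1, or its reverse complement in capitals. Both genes lie on the plus strand, Rasl11b at chr5:74195076-74195325 and Rasl11a at chr5:146844821-146845070.
Rasl11b: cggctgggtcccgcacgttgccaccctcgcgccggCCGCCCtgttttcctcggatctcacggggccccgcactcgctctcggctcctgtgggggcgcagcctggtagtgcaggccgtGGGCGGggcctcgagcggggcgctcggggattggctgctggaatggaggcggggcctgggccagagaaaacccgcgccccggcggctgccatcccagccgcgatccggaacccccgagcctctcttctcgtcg
Rasl11a: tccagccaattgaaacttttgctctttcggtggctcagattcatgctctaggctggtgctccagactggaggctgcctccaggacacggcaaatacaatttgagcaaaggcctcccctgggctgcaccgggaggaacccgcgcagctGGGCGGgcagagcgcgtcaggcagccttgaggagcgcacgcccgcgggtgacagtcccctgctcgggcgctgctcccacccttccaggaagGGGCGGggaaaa
Each window held 2 such matches, beginning at -215 and -133 from the start site in Rasl11b and at -103 and -12 in Rasl11a. Of 27025 promoters of all genes, read from 250 bases before to 50 after the start, 35.9% held a match on either strand. In these 300 bases the share of G and C was 73% in Rasl11b and 63.7% in Rasl11a, against a median of 52.7% over all promoters.

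Rasd1 was dim on all arrays. Its intensity was 59.5 and 84.9 in TGF-beta1 and 81.4 and 62.1 in low glucose, and the groups overlapped. The difference was -0.03 ± 0.08, with 0.01 and -0.06 within the pairs. Its mean log2 value of 6.88 was just above the filter at 6.85, so a change in it would be understated.

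Among the Sprouty genes, Spry2 showed the largest difference. On its brightest probe set the intensity was 728.5 and 465.4 in TGF-beta1 and 272.7 and 558 in low glucose. The groups overlapped, since TGF-beta1 replicate 2 lay below low glucose replicate 2. Within each array pair the TGF-beta1 array was the higher one, by 0.71 in pair 1 and 0.36 in pair 2. The mean was 9.31 ± 0.44 in TGF-beta1 and 8.77 ± 0.69 in low glucose (SD, n = 2 each). The difference was 0.54 ± 0.08 (1.45-fold), and its standard error was 0.41 without the block. It was the 139th highest of the 13565 genes, and 1.53% of them had a larger absolute difference. Leaving out 1 array breaks up a pair, so that the gap between the pairs enters the value. Leaving out low glucose replicate 1 gave 0.05 and leaving out low glucose replicate 2 gave 1.03, and leaving out TGF-beta1 replicate 1 or 2 gave 0.22 or 0.85. The other probe set of Spry2 was under the filter, at 38 and 61.8 in TGF-beta1 and 57.9 and 41.4 in low glucose, with a difference of -0.02.

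The same stretch upstream of Spry2 is shown as that of the member with the largest positive difference. It lies on the minus strand at chr14:105896820-105897069 of GRCm38.p6.
Spry2: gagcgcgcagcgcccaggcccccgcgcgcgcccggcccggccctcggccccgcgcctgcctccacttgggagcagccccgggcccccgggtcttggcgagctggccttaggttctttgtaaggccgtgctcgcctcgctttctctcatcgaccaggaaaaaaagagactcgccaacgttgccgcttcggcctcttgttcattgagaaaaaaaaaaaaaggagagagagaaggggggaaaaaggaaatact
The 300-base window of Spry2 held no match to GGGCGG, and its share of G and C was 62.7%. A sequence was used for 6 of the 8 genes, without Spry4 and Rasd1. Of these 6, 5 held at least 1 match to GGGCGG, against 35.9% of all promoters. Their share of G and C ran from 57% to 73%, against a median of 52.7% over all promoters, so nothing is read from that count. In the same 6 windows the AP-1 motif TGANTCA (in 7.93% of all promoters), the cyclic AMP response element TGACGTCA (1.88%), the ETS motif CCGGAAG (9.12%) and the SMAD motif CAGACA (21%) were searched on both strands. None of these 4 was found. A match is no proof of a site, and its absence says only that these letters are not in the window.

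Spry4, the Sprouty gene with most probe sets here, gave values that differed between them. On the brightest the intensity was 115.9 and 350.1 in TGF-beta1 and 266.4 and 96.8 in low glucose. The array pair set the order, with both arrays of pair 1 over both of pair 2. The difference was 0.26 ± 0.06, at 0.37 and 0.15 within the pairs, the same sign in both. Leaving out TGF-beta1 replicate 1 or 2, without the block, gave 0.85 or -0.33, and leaving out low glucose replicate 1 or 2 gave 0.74 or -0.22. The gap between the pairs enters those values. Another probe set showed 113.1 and 107 in TGF-beta1 and 69.9 and 64.5 in low glucose. There both TGF-beta1 arrays were above both low glucose arrays, and the difference was 0.43, with 0.35 and 0.51 within the pairs. The remaining probe sets differed by 0.11 and 0.09. All 4 were thus higher in TGF-beta1 on average, although 1 of them, under the filter, was at -0.01 within pair 2.

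Spry1, a Sprouty gene known for its part in kidney development, differed little between the groups, which overlapped. Its intensity was 618.9 and 796.7 in TGF-beta1 and 726.3 and 627.2 in low glucose. The difference was 0.06 ± 0.08, with 0.15 and -0.03 within the pairs, and 65% of all genes tested had a larger absolute difference.

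Of the Spred genes, Spred1 had 8 probe sets that went both ways. The brightest showed 399.8 and 324.2 in TGF-beta1 and 266 and 365.2 in low glucose, which overlapped. Its difference was 0.19 ± 0.07, with 0.27 and 0.12 within the pairs. Leaving out TGF-beta1 replicate 1 or 2 gave 0.04 or 0.35, and leaving out low glucose replicate 1 or 2 gave -0.04 or 0.42. Of the 8 probe sets 5 were above 0 and 3 below, from -0.26 to 0.19, and their mean was 0.01. The lowest showed 63.8 and 96.6 in TGF-beta1 and 112.9 and 89.2 in low glucose. On the normalised scale its groups did not overlap, and within the pairs it was at -0.18 and -0.35. The sources used here do not say which part of the transcripts each probe set reads.

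Spred2 stayed near 0 on all 5 of its probe sets, from -0.08 to 0.10. The brightest showed 375.9 and 513.2 in TGF-beta1 and 465.8 and 393.6 in low glucose, and the difference was 0.04 ± 0.08, with 0.13 and -0.06 within the pairs. Over all 23 probe sets 13 differences were above 0 and 10 below. The groups did not overlap in 6 of them, 3 in either direction, against 19.3% of all probe sets on the array.

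**Figure D2:**
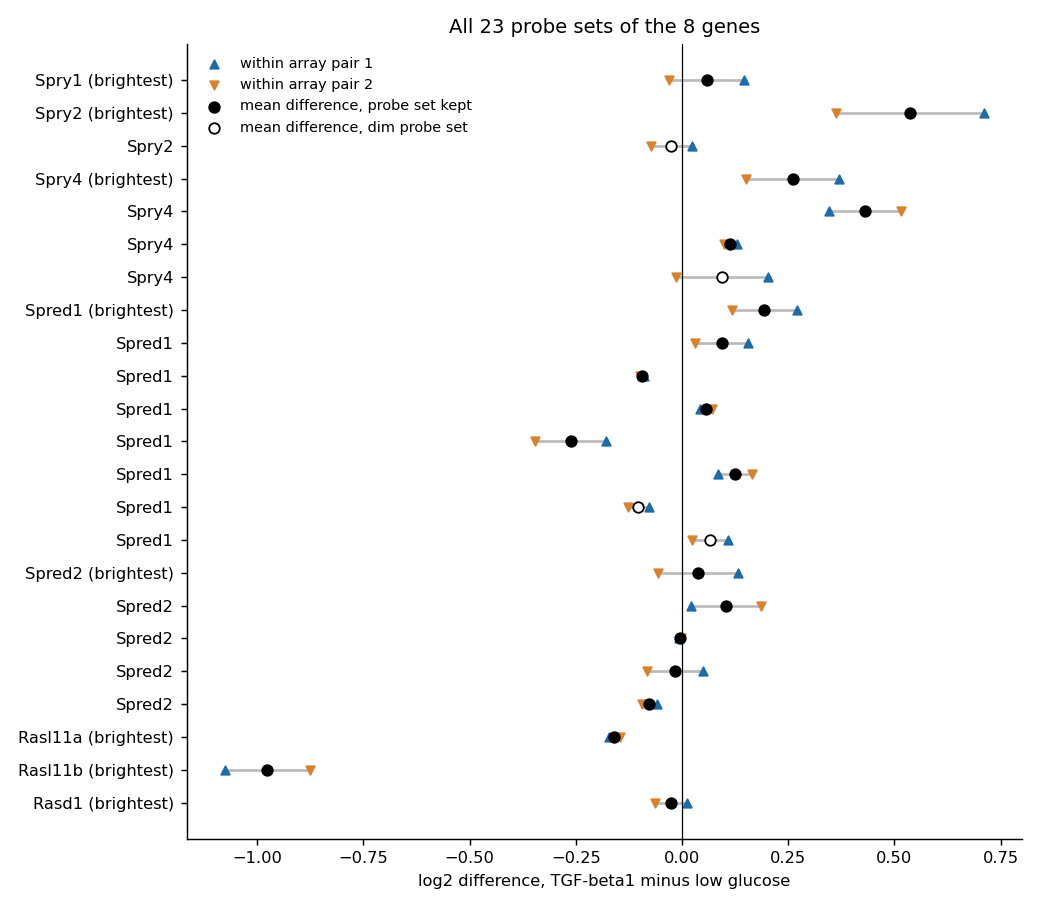
Log2 difference, TGF-beta1 minus low glucose, for each of the 23 probe sets, by gene with the brightest first. Circles are means over both array pairs (open where the probe set was under the filter) and triangles the differences within each pair. Spred1 has probe sets on both sides of 0, all 4 of Spry4 are to the right of 0, and the single one of Rasl11b is at -0.98.

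**Figure D3:**
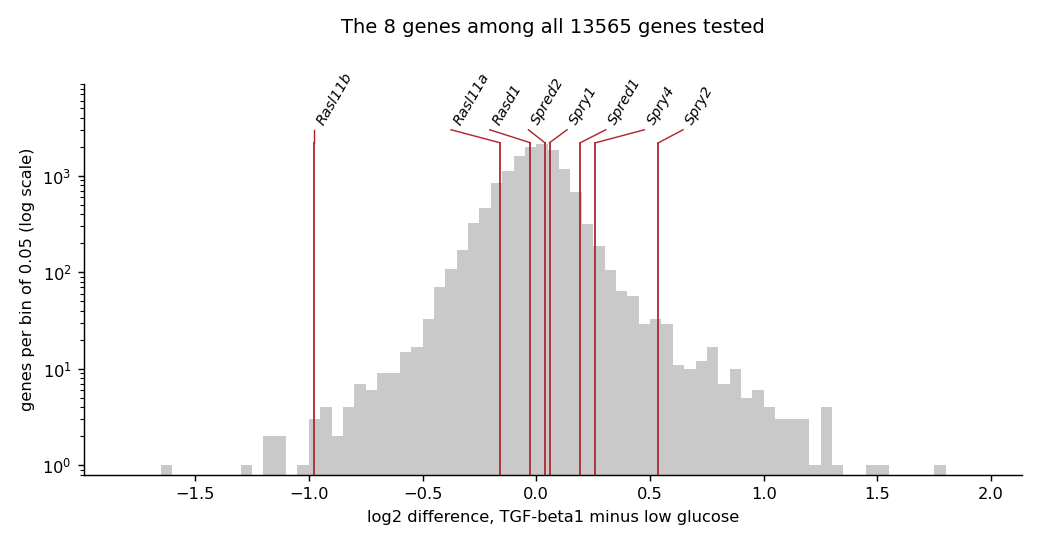
Histogram of the log2 difference, TGF-beta1 minus low glucose, of all 13565 genes tested, with a log axis for the count of genes per bin of 0.05. Red lines mark the 8 genes: Rasl11b lies in the lower tail, Spry2 in the upper shoulder, and Rasd1, Spred2 and Spry1 in the centre.

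The array pair is a contrast that the choice of the genes did not use. For 7 of the 8 genes the difference between the pairs was larger in size than that between TGF-beta1 and low glucose, Rasl11b being the exception. Over all genes tested that held for 76.2%. Spry4 was lower in pair 2 than in pair 1 by 1.07 ± 0.06 (limma adjusted p = 1.78e-59), and Spry2 was higher in pair 2 by 0.80 ± 0.08 (5.13e-23). With a finite prior the adjusted p was 0.0104 for Spry4 and 0.0138 for Spry2 in limma. Another probe set of Spred2 was at -0.72. By the same test 7 of the 8 genes differed between the pairs, against 66.5% of all genes tested. Of these, 4 were higher in pair 2 (34.7% of all genes) and 3 in pair 1 (31.8%). With so large a background the count marks nothing about these genes. Spry1, Spred2 and Rasl11b no longer passed with the finite prior (limma adjusted p = 0.0933, 0.0579 and 0.14), with 46.9% of all genes called.

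**Figure D4:**
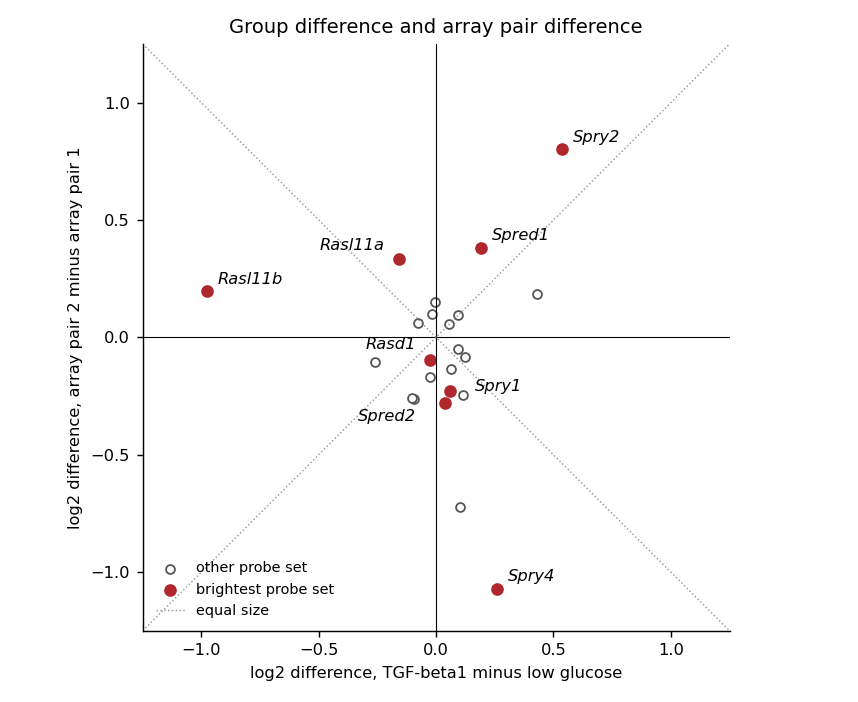
Log2 difference between array pairs (pair 2 minus pair 1, vertical) against that between groups (TGF-beta1 minus low glucose, horizontal) for the 23 probe sets. Filled points are the brightest probe set of each gene, open points the others, and dotted lines mark equal size. Spry4 and Spry2 lie farthest from 0 on the vertical axis, and Rasl11b on the horizontal one.

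The genes whose pattern over the 4 arrays was most like that of Rasl11b were Ntn4, a netrin of basement membranes, Npr3, the clearance receptor of natriuretic peptides, and Id3, an inhibitor of helix-loop-helix factors. Their Euclidean distances, from log2 values centred on each gene's mean, were 0.066, 0.111 and 0.137. The nearest to Spry2 were Tnfaip2 at 0.141, Sh3rf1 at 0.158 and Ell2 at 0.217. In these genes the difference was 0.55, 0.53 and 0.39, and pair 2 exceeded pair 1 by 0.66, 0.73 and 0.69. The search used these same 4 arrays, so differences like those of Rasl11b and Spry2 follow from it and are a description. Members and symbols that are clone or model names were left out of the search.

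The other genes of the pathway were read in the same limma fit, with its background of 18.5% called. Without the block limma called 0 genes, and 271 (2%) had an unadjusted p under 0.05. With the block, 1 residual degree of freedom is left and each gene takes its spread from genes of like brightness. With the prior of the other fit it called 0 genes as well. The lists were written with earlier results of these data known.

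Genes that ERK signalling induces mostly rose: 19 of 21 tested passed and were higher, 0 fell and the other 2 missed the threshold. The list had a median of 0.57, with 0.62 and 0.56 within the pairs, against 0.00 for all genes tested. Fosl1, a Fos-like subunit of the AP-1 transcription factor, had intensities of 663.8 and 998.1 in TGF-beta1 and 391.1 and 246.2 in low glucose, and rose by 1.26 ± 0.08. Hbegf, a ligand of the EGF receptor, rose by 1.15 ± 0.08, Jun by 1.10 ± 0.08 and Junb by 0.98 ± 0.08. In each of these 4 genes both TGF-beta1 arrays lay above both low glucose arrays. Etv4 and Etv5, ETS factors often induced together with Sprouty genes, rose by 0.30 ± 0.07 and 0.21 ± 0.07. The groups overlapped in Etv4 and not in Etv5.

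Brakes on Ras and ERK outside the 8 genes rose in 8 of 22 cases, with 0 falling and a median of 0.10. Dusp5, Dusp4 and Dusp6, phosphatases that act on ERK, rose by 1.10 ± 0.07, 0.99 ± 0.07 and 0.82 ± 0.08. Errfi1, an inhibitor of the EGF receptor, rose by 0.54 ± 0.08. The list also held the remaining family members Spry3 and Spred3, which did not pass at 0.06 ± 0.07 and 0.04 ± 0.07. With arrays centred on their medians 10 brakes were called, 90% of them higher.

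The cascade itself moved both ways, with 4 of 23 genes rising, 5 falling and a median of 0.03. Elk3, an ETS factor that ERK phosphorylates, rose by 0.78 ± 0.08 (0.26 on another probe set). The docking proteins Gab2 and Gab1 went apart, Gab2 rising by 0.58 ± 0.06 and Gab1 falling by 0.33 ± 0.07. On the normalised scale the groups of Gab2 overlapped, and other probe sets of Gab2 were at -0.11 and -0.01. Mknk2, a kinase downstream of ERK, fell by 0.41 ± 0.07. The 15 tested of 21 listed genes of FGF ligands, receptors and docking proteins had a median of 0.14, with 0.10 and 0.03 within the pairs. Of these 15 genes 2 rose and 0 fell, 13.3% against the 18.5% of all genes. Those 2 were Fgf21, a circulating FGF of stress and fasting, at 1.52 ± 0.06 and Gpc1, a heparan sulphate proteoglycan, at 0.59 ± 0.07. Sdc4 was at 0.21 ± 0.08 and Sdc1 at 0.17 ± 0.08, neither of which passed.

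Of 14 binding partners of Sprouty and Spred proteins 2 rose and 0 fell, 14.3% against the 18.5% of all genes. With arrays centred on their medians 3 were called, 66.7% of them higher. Siah2, a ubiquitin ligase that targets Sprouty2, rose by 0.55 ± 0.07 and Cav1, caveolin 1, whose groups overlapped, by 0.35 ± 0.07. Nf1, the neurofibromin that Spred proteins recruit, was at -0.15 ± 0.06 and Fgfr1 at 0.15 ± 0.07 without passing.

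Other Ras-like small GTPases were higher in 8 of 21 cases, with 0 falling and a median of 0.12. Rhob, a GTPase of the actin cytoskeleton, rose by 0.96 ± 0.08, Gem and Rrad, RGK proteins that inhibit calcium channels, by 0.81 ± 0.07 and 0.41 ± 0.06, and Diras1 by 0.26 ± 0.06 (0.06 on another probe set). Rasl12 rose by 0.24 ± 0.08, with groups that overlapped. Of 13 genes listed as glucocorticoid-induced, the class in which Rasd1 was first described, 7 rose (53.8%, against 18.5% of all genes) and 0 fell. The other 6, Mt1, Zbtb16, Tsc22d3, Pdk4, Fkbp5 and Nr3c1, did not pass and lay between -0.07 and 0.09. Nr3c1 is the glucocorticoid receptor itself and does not belong to the induced class, although the list counts it. Dusp1, a MAP kinase phosphatase, rose by 1.06 ± 0.08, Sgk1, a kinase of sodium transport, by 0.97 ± 0.07, Cebpd by 0.78 ± 0.07 and Mt2, a metallothionein, by 0.60 ± 0.07. Direct TGF-beta targets rose in 9 of 15 cases and fell in 3, and the 3 were Id1, Id2 and Id3. Pmepa1, an inhibitor of SMAD signalling, rose by 1.29 ± 0.08 and Bhlhe40 by 1.01 ± 0.08, and Id3 fell by 0.99 ± 0.08. Some genes stand in more than 1 list (Junb, Errfi1, Nf1 and Fgfr1), so the lists are not independent of each other.

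**Figure D5:**
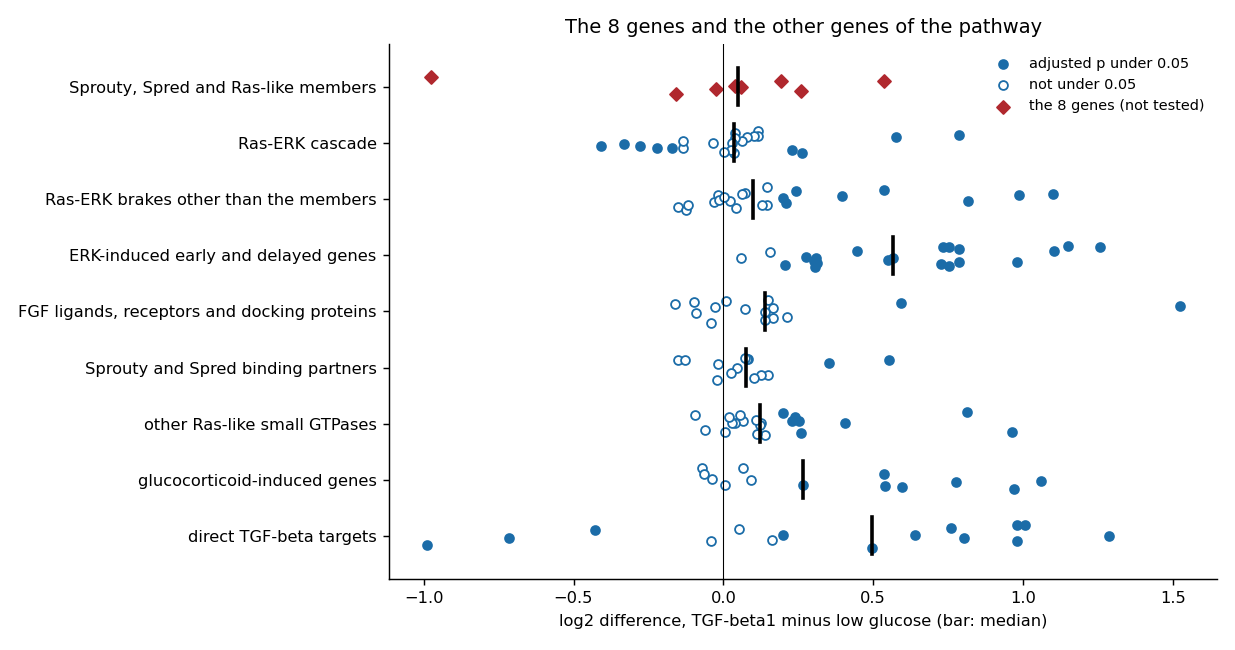
Log2 difference, TGF-beta1 minus low glucose, of the 8 genes (red diamonds, not tested) and of the tested genes of 8 lists. Filled circles passed an adjusted p of 0.05 in limma with the array pair as a block, and black bars are medians. The ERK-induced genes are centred at 0.57, while the median of the 8 genes is 0.05.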

How the data were processed

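Intensities of total RNA from 4 arrays were analysed, 2 of TGF-beta1 and 2 of low glucose, grouped by their titles. The authors deposited 1 linear intensity per probe set and array, and the sources used here do not say how they were summarised and scaled. From these, log2(intensity + 46.88) was computed (the 25th percentile of all values) and quantile-normalised, since array medians differed by 0.227. The dimmest probe sets, under the 40th percentile of mean log2, were dropped (27022 were left), and the brightest of each gene was tested (13565 genes).

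Genes were tested two-sided in limma 3.58.1 under R 4.3.3 (lmFit, then eBayes with its trend option), with the array pair as a block, and called at a Benjamini-Hochberg adjusted p under 0.05 over all genes. Figures were drawn with matplotlib 3.10.9. Replicate numbers were given in accession order and pair no arrays. The pairs came from spike-ins, whose mean absolute log2 difference was at most 0.077 within pairs and at least 0.937 between them, and the arrays with the same repeat tag fall into 1 pair.

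Genes were named by a rule: all 8 members, the 4 largest absolute differences of each list, and the 3 tested genes nearest to the members with the largest positive and negative difference. Members and symbols that are clone or model names were left out of the nearest genes. Acta2, Vim, Lrp2, Cdh16, Csf1r, Pdgfrb, Thy1, Gata3, Id1, Id2, Etv4, Etv5, Rasl12, Spry3, Spred3 and Epcam were named outside this rule, after their values were seen. The same holds for Mt1, Zbtb16, Tsc22d3, Pdk4, Fkbp5 and Nr3c1, and for the tubule markers Pax8, Umod, Slc12a1, Slc12a3, Aqp2, Slc34a1 and Cdh1. Members and lists were chosen with earlier results of these data known. Promoters came from RefSeq. The alternatives were other pseudocounts, scalings, filters and priors, no block, other probe sets, single pairs and leaving out each array. The number of arrays limits the precision.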

Additional observations from a re-analysis of the deposited data

How the results depend on the processing

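The 8 genes were read under both other pseudocounts, the authors' scaling, median centring, the mean over probe sets and each array pair alone. There Spry2, Spry4, Spred1, Rasl11a and Rasl11b kept their direction. Spry1 and Spred2 changed sign within pair 2 (-0.03 and -0.06), and Rasd1 within pair 1 (0.01) and with the authors' scaling (0.002). The mean over probe sets was 0.26 for Spry2, 0.22 for Spry4 and 0.01 for Spred1 and Spred2. All moves were under 1 SD within the groups, a wide limit since that SD holds the gap between the pairs. Leaving out 1 array unbalances the pairs. The ranges were then 0.05 to 1.03 for Spry2, -0.33 to 0.85 for Spry4, -0.04 to 0.42 for Spred1, -0.33 to 0.01 for Rasl11a (0.00043 without low glucose replicate 2), -1.13 to -0.83 for Rasl11b, -0.10 to 0.22 for Spry1, -0.15 to 0.23 for Spred2 and -0.09 to 0.04 for Rasd1. Spry4 was below 0 without TGF-beta1 replicate 2 (-0.33) or low glucose replicate 2 (-0.22), Spred1 without low glucose replicate 1 (-0.036), and Rasl11a above 0 without TGF-beta1 replicate 2 (0.014).

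With no replicate block, limma called 0 genes and 0 genes of each of the 8 lists, and so did the replicate block with the prior degrees of freedom of the other fit (0 genes, 0 of each list), against 2503 genes in the blocked fit. Leaving out 1 array, without the block, gave 0 to 9 genes, 0 to 2 of the ERK-induced genes and of the direct TGF-beta targets, 0 to 1 of the FGF and of the glucocorticoid-induced genes, and 0 of the other 4 lists. Under the other pseudocounts, scalings and filters each list's count stayed within 1.5 times. With median centring 90% of the called brakes and 66.7% of the called binding partners were higher, against 100% of both in the quantile-normalised fit. The split of all calls was 42.7% higher, 46.1% with the authors' scaling and 33.5% with median centring.

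The difference between array pairs lost its call for Rasl11b with the authors' scaling (0.16, limma adjusted p = 0.0654), and for Spry1 (-0.069, 0.462) and Spred2 (-0.11, 0.192) with median centring, while Rasd1 gained one with the authors' scaling (-0.27, 0.000721). With a finite prior, an alternative chosen after seeing the data, Spry1 (-0.23, 0.0933), Spred2 (-0.28, 0.0579) and Rasl11b (0.20, 0.14) did not pass. The causes were not tested.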

Other observations

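Epcam, an epithelial adhesion protein, showed the array order of the brightest Spry4 probe set. Its log2 level was 7.44 and 8.58 on TGF-beta1 replicates 1 and 2 and 8.46 and 7.43 on low glucose replicates 1 and 2. It was lower in array pair 2 than in pair 1 by 1.08 on the log2 scale, and TGF-beta1 and low glucose differed by 0.06. Over all genes tested, 31.8% were called higher in pair 1. By intensity, Pax8, Umod, Slc12a1 and Aqp2 also had both arrays of pair 1 over both of pair 2. Lrp2, Cdh16, Slc12a3, Slc34a1 and Cdh1 did not, and in Slc12a3 and Cdh1 both arrays of pair 2 were the higher ones. Slc12a1, Slc34a1 and Cdh1 were under the filter. The array medians before normalisation were also higher in pair 1 (99.6 and 96.8) than in pair 2 (80.3 and 78.3), so nothing is read from these orders. The comparison of Epcam with Spry4 was picked after the values were seen.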
